A study of Mus musculus with 120 samples.

Results

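The 12 libraries described here received 2.4 nM halofuginone, the lowest of 7 doses in a series of 120 RNA libraries. They were chosen by their dose label, and 6 of them also carry a label of 2 mM proline. All cells were macrophages grown from bone marrow (BMDM) of wild-type male C57BL/6 mice aged 12 weeks, transduced with a pool of viruses that report transcription factor activity and replated in 96-well format. Each arm, 2.4 nM halofuginone with proline and 2.4 nM halofuginone without it, has 2 libraries at each of the time labels T0, T1 and T4, and the 36 controls have 12 at each time. Comparisons were also made with 12 libraries at 9.7 nM and with 36 at 625, 2500 and 10000 nM. The series design describes pretreatment with small molecules before lipopolysaccharide (LPS), a bacterial product that macrophages sense through Toll-like receptor signalling. No label says which libraries received LPS, the times carry no unit, the controls carry no proline label, and no label names proline without halofuginone. No label says that replicates are separate cultures or animals, so each p-value measures the spread between libraries, which may be technical.

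Eprs encodes the enzyme that joins proline to its tRNA; halofuginone occupies the place where proline binds, and excess proline is known to relieve that block. Uncharged transfer RNA activates the kinase Gcn2, which phosphorylates the translation factor eIF2; the transcription factor ATF4 is then made, and it raises genes for amino acid import, amino acid synthesis and tRNA charging. In macrophages, LPS activates NF-kB, which drives chemokine and cytokine genes, and later interferon-stimulated genes. The lowest dose bears on where such responses begin, and its arm with proline is the nearest stand-in for proline alone.

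The libraries were shallow. Totals ran from 38745 to 74132 counts at 2.4 nM and from 35545 to 114061 in controls. Rn45s, the precursor of ribosomal RNA, held 38.7 ± 5.45% of counts at 2.4 nM (SD, n = 12) and 43.1 ± 5.73% in controls (SD, n = 36). Averaged over times, the difference of -4.43 points had p = 0.0035 by a two-sided permutation test within times and 0.084 after adjustment over 24 tests of library measures. With and without proline that share did not differ beyond the spread between libraries (39.3 ± 4.47% and 38 ± 6.67%, SD, n = 6 each, exact permutation p = 0.713). Genes with at least 1 count averaged 5704 ± 321.6 at 2.4 nM and 5605 ± 518.8 in controls (permutation p = 0.534). Macrophage markers were present, with 626 counts of Csf1r at 2.4 nM and 1916 in controls, and 65 and 277 of Cd68. Lyz2, a lysozyme gene that macrophages usually express highly, had 0 counts at 2.4 nM and 11 in controls. Erythroid and mast cell markers were at 0 in both, B cell, T and NK cell and fibroblast markers had at most 7 counts each. Of the dendritic cell markers, Flt3 was at 0 in both, Xcr1 had 11 counts at 2.4 nM and 30 in controls, Ccr7 had 11 and 15, Siglech 3 and 5 and Zbtb46 0 and 2, and their part in the results was not tested. Of the neutrophil markers, S100a9 had 104 counts at 2.4 nM and 352 in controls and S100a8 had 78 and 252. Ngp had 36 and 79, Ltf 5 and 9, Camp 2 and 20 and Mpo 0 and 1, while Elane and Retnlg were at 0 in both. The summed neutrophil level ran from 197 to 362 CPM at 2.4 nM and from 105 to 437 CPM in controls.

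**Figure D1:**
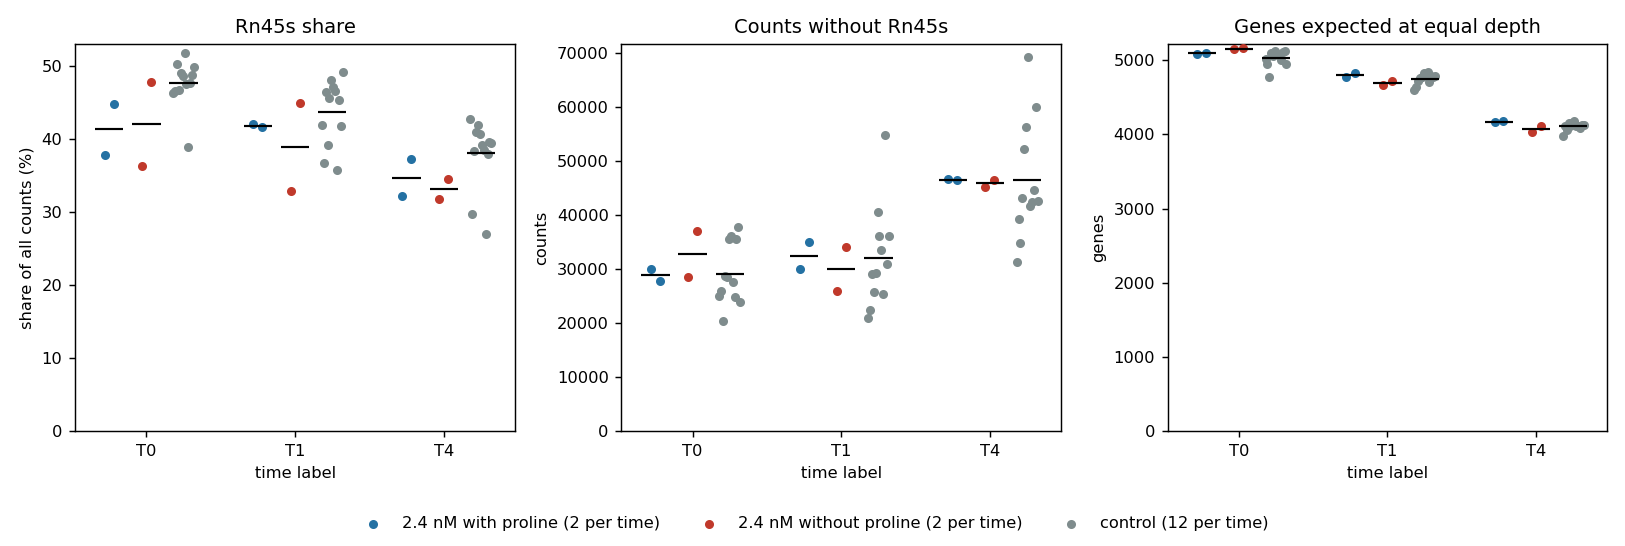
Share of Rn45s (% of all counts), counts without Rn45s and genes expected at an equal depth of 20467 counts without Rn45s, by time label; each point is a library, black lines are means, and at each time the groups run from 2.4 nM with proline through 2.4 nM without proline to control. The Rn45s share at 2.4 nM ran from 31.8 to 47.8%, and the counts without Rn45s ran from 25987 to 46691 at 2.4 nM and from 20467 to 69316 in controls.

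Levels below are CPM, counts scaled to library size, on a common scale (trimmed mean of M values, TMM, over all 120 libraries), differences are log2 fold changes fitted by edgeR's quasi-likelihood test over 48 libraries with time as a block, and a gene is called when its Benjamini-Hochberg adjusted p is under 0.05 over all genes tested. In bulk libraries, fewer cells of a type and less RNA per cell cannot be told apart. With both arms of 2.4 nM against control, 14 of 1307 tested genes were called (1.07%), 6 higher (0.459%) and 8 lower (0.612%). This comparison takes the mean of the arms, so a call does not mean that each arm changed. For 6 of the 14, every library at 2.4 nM lay on the same side of the control mean of its time. None of the 14 was called in the arm with proline alone. The 95% interval of the difference lay within 2-fold for 1199 genes (91.7%). By limma-voom 8 genes were called and by DESeq2 26.

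Of the 6 genes called higher in the mean of the arms, Rgs1, a brake on G protein signalling, had the largest difference, 1.06 (SE 0.25, adjusted p = 0.0149). The TNF family ligand Tnfsf9 rose by 0.76 (SE 0.18, adjusted p = 0.0149), and Eif2s2, which encodes the beta subunit of eIF2, by 0.68 (SE 0.13, adjusted p = 0.000905). Smaller were the rises of the ribosomal protein gene Rps26 (0.48), the AP-1 factor Junb (0.41) and Spp1 (0.34), which encodes the secreted phosphoprotein osteopontin. Rps26 belongs to a family with many processed copies, whose reads the counting could split. Of the 8 called lower, Hsp90b1, a chaperone of the endoplasmic reticulum, fell by 1.17 on the log2 scale (SE 0.21, adjusted p = 0.000417), and the cytosolic chaperone Hspa8 by 0.63 (SE 0.12, adjusted p = 0.001). The others called lower were Prrc2c, which codes for an RNA-associated protein (-0.61), the chromatin remodeller Chd4 (-0.60), the proteoglycan Sdc4 (-0.48), the lipid carrier Apoe (-0.46), Cybb, the catalytic subunit of the phagocyte oxidase (-0.44), and the calcium-binding protein gene S100a4 (-0.37). For S100a4 the arms differed, by 0.72 with against without proline (edgeR adjusted p = 0.0109). Leaving out 1 library at 2.4 nM at a time left 7 to 15 calls, the 7 without T4 replicate 2 of the arm without proline. With the Rn45s share of each library as a covariate 13 were called, 8 of them among the 14, and Prrc2c, Apoe and Cybb were then not.

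The chaperone levels were as follows. Hsp90b1 (chr10:86690209-86705509, minus strand of GRCm38) had 230.3 and 339.6 CPM with proline and 164 and 219 CPM without it at T0, against 213, 500.1 and 1063 CPM (lowest, median and highest) in controls. At T4 it had 109 and 214 CPM with proline and 77 and 185 CPM without it, against 156, 329 and 872 CPM in controls. All 12 libraries at 2.4 nM lay under the control median of their time, but the ranges overlapped at each time. Hspa8 (chr9:40800984-40810087, plus strand) at T4 had 461 and 487 CPM with proline and 271 and 347 CPM without it, against 360, 683 and 1174 CPM in controls. Both libraries without proline lay under every control at T4. Of 4 tested genes of the list of endoplasmic reticulum chaperones, 1 fell with both arms (Hsp90b1) and the median was -0.30; of 3 tested heat shock genes 1 fell (Hspa8), with a median of -0.29. The median of all 1307 genes was -0.0095.

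The arms were then set against control singly. At 2.4 nM without proline, 30 of 1307 genes were called (2.3%), 21 higher and 9 lower, and 961 intervals (73.5%) lay within 2-fold. Chemokine and other NF-kB target genes made up 7 of the 21. Of the list of inflammatory and NF-kB genes, 7 of 38 tested members rose, none fell (higher calls made up 1.61% of all genes tested, lower calls 0.689%), and 32 were positive, with a median of 0.29. The 7 were Cxcl1 1.2 (SE 0.25, adjusted p = 0.00289), Tnfsf9 1.08, Cxcl3 0.94, Ccl2 0.87, Bcl2a1d 0.72, Cxcl2 0.63 (SE 0.15, adjusted p = 0.00679) and Cd83 0.62. Cxcl1, Cxcl2 and Cxcl3 encode chemokines that attract neutrophils, Ccl2 one that attracts monocytes, Bcl2a1d an inhibitor of cell death and Cd83 a surface protein of activated antigen-presenting cells. Bcl2a1d has near-identical copies in the genome, so its value is uncertain. By limma-voom 14 genes were called in all and by DESeq2 48. None of the 7 passed by limma-voom, with adjusted p from 0.0638 for Tnfsf9 to 0.385 for Cxcl2, while DESeq2 called all 7. Leaving out 1 library of the 12 at a time left 15 to 31 calls by edgeR. The count was 15 without T4 replicate 1 of the arm without proline, and 19 without its T1 replicate 1 or its T4 replicate 2.

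The 3 neutrophil chemokines lie in 1 cluster on chromosome 5, where the end of Cxcl1 and the start of Cxcl2 are 10.8 kb apart and Cxcl3 lies 101.6 kb before Cxcl1. Their promoters (250 bases before to 50 after the gene start, RefSeq, GRCm38.p6, plus strand) are chr5:90890995-90891294, chr5:90903649-90903948 and chr5:90785851-90786150. They are shown because these genes move together here and all hold matches to the kB motif (GGG, then any 3 bases, then TTCC), searched on both strands and marked in capitals.
Cxcl1: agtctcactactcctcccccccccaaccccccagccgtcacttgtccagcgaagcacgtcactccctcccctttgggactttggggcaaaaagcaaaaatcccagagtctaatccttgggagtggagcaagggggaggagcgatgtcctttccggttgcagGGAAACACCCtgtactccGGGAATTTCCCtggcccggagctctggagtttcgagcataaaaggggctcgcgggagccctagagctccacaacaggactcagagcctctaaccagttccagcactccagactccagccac
Cxcl2: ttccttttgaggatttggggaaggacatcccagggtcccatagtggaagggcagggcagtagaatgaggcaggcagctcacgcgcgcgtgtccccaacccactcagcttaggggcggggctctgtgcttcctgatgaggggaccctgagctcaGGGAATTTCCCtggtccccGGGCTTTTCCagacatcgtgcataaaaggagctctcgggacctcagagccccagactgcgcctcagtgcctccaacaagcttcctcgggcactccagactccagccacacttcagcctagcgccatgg
Cxcl3: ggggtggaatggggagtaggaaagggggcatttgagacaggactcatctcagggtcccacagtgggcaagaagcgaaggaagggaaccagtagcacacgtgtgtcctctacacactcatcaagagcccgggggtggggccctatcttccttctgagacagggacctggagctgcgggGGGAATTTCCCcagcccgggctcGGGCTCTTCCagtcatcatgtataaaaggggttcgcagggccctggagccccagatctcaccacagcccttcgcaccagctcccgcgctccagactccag
Each holds 3 matches, of which 2 overlap and merge in the capitals. They start between -89 and -70 from the gene start in Cxcl1, between -97 and -78 in Cxcl2 and between -73 and -50 in Cxcl3. The motif was found in 3 of 17 genes with a promoter that rose without proline, and these were Cxcl1, Cxcl2 and Cxcl3 themselves. They were shown for holding the motif, so that share is no test of it. It was in 0 of 6 of those that fell, in 9.11% of the 977 tested genes with a promoter and in 6.31% of all 27025 genes with one. TGATGNAA, a form of the composite site that C/EBP and ATF4 can bind, was in 1 of the 17 (Bcl2a1d), 0 of the 6 and 4.51% of all genes with a promoter. A match describes letters in this window and no binding was measured.

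Cxcl2 (chr5:90903871-90905938, plus strand) had 29.5 and 49.4 CPM with proline and 37.8 and 47 CPM without it at T0, against 0, 22.6 and 95.8 CPM in controls. At T1 it had 2638 and 3497 CPM with proline and 5469 and 6669.8 CPM without it, against 2253, 3431 and 4078 CPM in controls. At T4 it had 486 and 487 CPM with proline and 1096 and 1296 CPM without it, against 651, 838 and 1462 CPM in controls. The libraries without proline stood above every control at T1, lay inside the control range at T0 and T4, and those with proline lay under every control at T4. Cxcl1 at T1 had 365 and 516 CPM with proline and 608 and 1171 CPM without it, against 270, 397 and 514 CPM in controls. Cxcl3 at T1 had 318 and 418 CPM with proline and 699 and 799 CPM without it, against 307, 403 and 623 CPM in controls. Both chemokines were above every control at T1 in both libraries without proline. Ccl2 was above every control at T4 in all 4 libraries except 1 with proline, at 388 and 534 CPM with proline and 604 and 616 CPM without it, against 105, 303 and 438 CPM in controls. Tnfsf9 at T1 had 572 and 627 CPM with proline and 1003 and 1115 CPM without it, against 175, 495 and 840.1 CPM in controls. By limma-voom Cxcl2 without proline against control missed the threshold (adjusted p = 0.385), and without T1 replicate 1 of that arm edgeR gave an adjusted p of 0.153.

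Several cytokine genes did not pass at 2.4 nM without proline. Tnf had a difference of 0.54 (SE 0.18, adjusted p = 0.0929), and at T1 it had 697 and 731 CPM with proline and 1063 and 1226 CPM without it, against 505, 745 and 880.2 CPM in controls. Il1b, the interleukin-1 beta gene, had 0.079 (SE 0.13, adjusted p = 0.877), an interval of -0.18 to 0.34. Ccl4, a chemokine for monocytes and lymphocytes, had 0.29 (SE 0.12, adjusted p = 0.228). Nfkbia, which encodes the NF-kB inhibitor, had 0.094 (SE 0.11, adjusted p = 0.804). For Il1b, Ccl4 and Nfkbia the interval excludes a change of 2-fold. Il6 was low, with a difference of 0.48 and an interval of -0.27 to 1.24. Of the 40 tested interferon-stimulated genes none was called, 30 were positive and the median was 0.15; the antiviral gene Rsad2 had 0.32 (SE 0.12, adjusted p = 0.173) Ifit1, which encodes an RNA-binding antiviral protein, 0.19 (SE 0.15, adjusted p = 0.654), and Cxcl10, a chemokine for T cells, 0.23 (SE 0.13, adjusted p = 0.451). Summed over their lists, inflammatory genes reached 21783 and 22652 CPM with proline and 29047 and 32271 CPM without it at T1, against 18556 to 24036 CPM in controls. Interferon-stimulated genes summed to 47087 and 48482 CPM with proline and 55067 and 58833 CPM without it at T4, against 45663 to 53648 CPM in controls. In both sums the arm without proline lay above every control and the arm with proline lay inside the control range. Each sum is given at 1 time alone and is weighted to the highest genes of its list.

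Of the immediate early genes, 2 of 11 tested rose at 2.4 nM without proline where 1.61% of all genes rose, and all 11 were positive, with a median of 0.34, against -0.0061 for all genes. Junb rose by 0.63 (SE 0.14, adjusted p = 0.00337), and the transcription factor gene Klf6 by 0.51 (SE 0.14, adjusted p = 0.0221). Neither passed by limma-voom (adjusted p = 0.0711 for Junb and 0.142 for Klf6), while DESeq2 called both. Junb (chr8:84974484-84978718, minus strand) had 177 and 329 CPM with proline and 314 and 416 CPM without it at T0, against 68.2, 138 and 279 CPM in controls. At T1 it had 1226 and 1335 CPM with proline and 1489 and 1598 CPM without it, against 943, 1092 and 1486 CPM in controls. Without proline it lay above every control at T0 and T1 and inside their range in 1 library at T4. Klf6 at T1 had 588 and 780.2 CPM with proline and 1307 and 1598 CPM without it, against 609.8, 946 and 1210.3 CPM in controls. Egr1, which encodes a zinc finger factor, had 0.63 (SE 0.43, adjusted p = 0.555), the phosphatase gene Dusp1 0.17 (adjusted p = 0.881) and the histone demethylase gene Kdm6b 0.10 (adjusted p = 0.93). None of these 3 passed. Fos, the AP-1 partner of Jun, had 79.4 and 97.5 CPM with proline and 92.9 and 228 CPM without it at T1, against 13.6, 59.4 and 145 CPM in controls, and Ifrd1, a transcriptional coregulator gene, had 111 and 181 CPM with proline and 74.3 and 76 CPM without it, against 15.9, 45.2 and 163 CPM. Both genes overlapped the controls. The summed immediate early level at T0 was 768 and 1168 CPM with proline and 1360.1 and 1567 CPM without it, against 636 to 1214 CPM in controls.

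**Figure D2:**
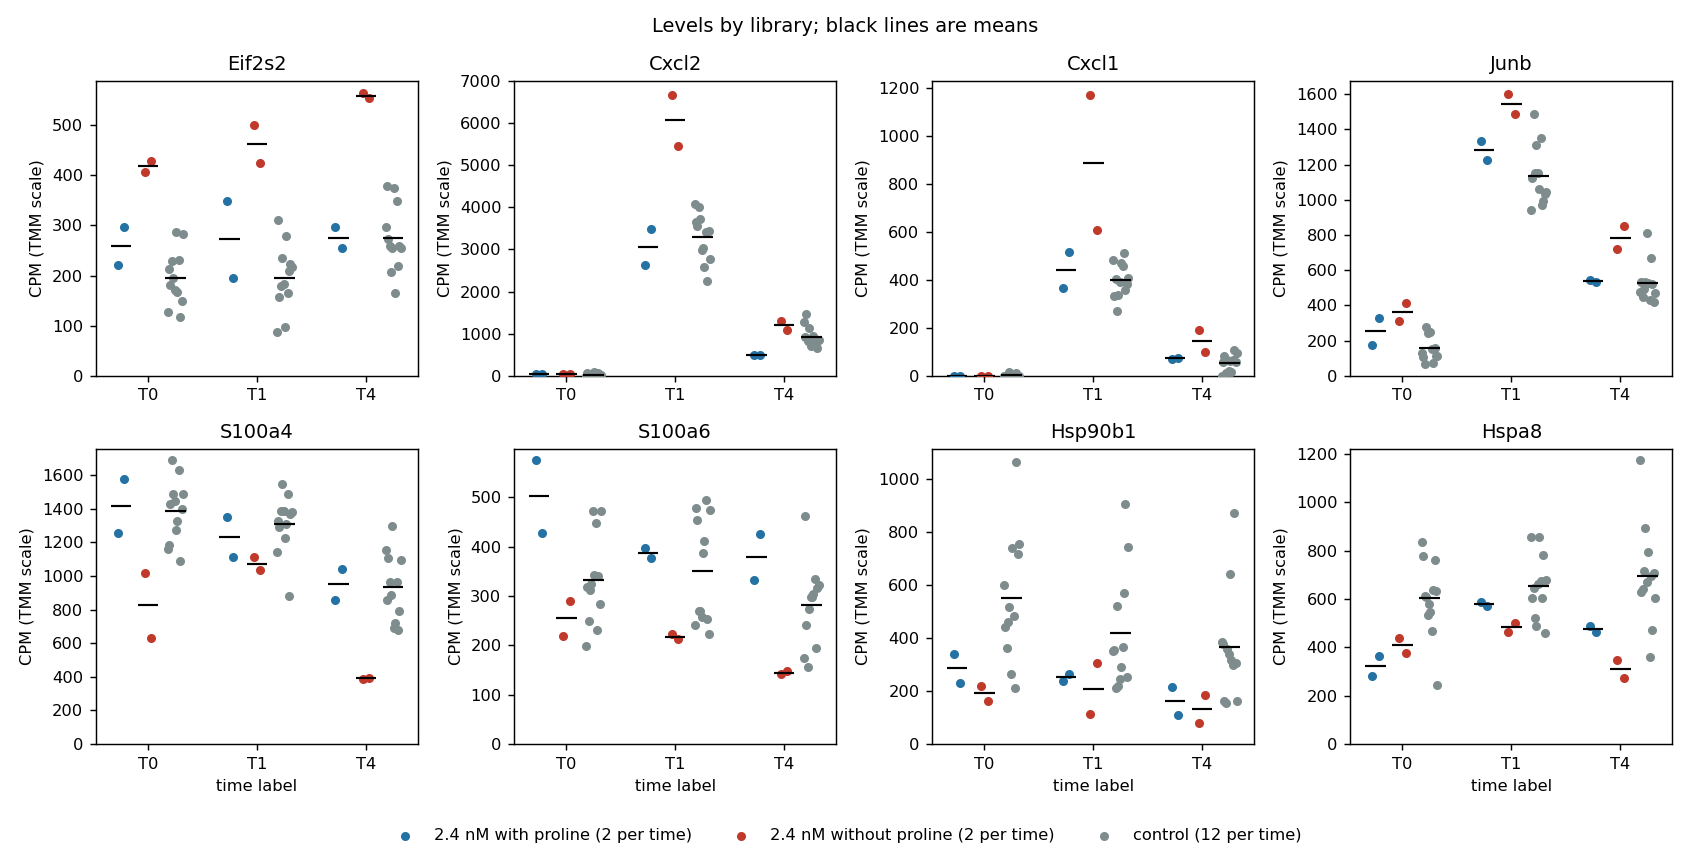
Level of 8 genes in each library (CPM, TMM scale, linear axis from 0) by time label; points are libraries, black lines are means, and at each time the groups run from 2.4 nM with proline through 2.4 nM without proline to control. Eif2s2 without proline stands above every control at each time, Cxcl2 without proline stands above every control at T1, and S100a4 without proline lies under every control at T4.

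Eif2s2 (chr2:154871410-154892935, minus strand) had the smallest adjusted p without proline, with a rise of 1.09 (SE 0.16, adjusted p = 1.44e-06). It had 222 and 296 CPM with proline and 408 and 428 CPM without it at T0, against 118, 188 and 287 CPM in controls. At T1 it had 195 and 349.5 CPM with proline and 425 and 502 CPM without it, against 87.7, 196 and 312 CPM in controls. All 6 libraries without proline lay above every control of their time, at T4 with 554 and 565 CPM against 166, 259 and 378 CPM. With proline, where its difference was 0.27 (SE 0.18, adjusted p = 0.823), 2 libraries lay above every control. Snx5, a sorting nexin of endosomes, rose by 1.11 (SE 0.25, adjusted p = 0.00551), and at T0 it had 162 and 214 CPM with proline and 329 and 605 CPM without it, against 68.2, 174 and 355 CPM in controls. At T4 both of its libraries without proline lay inside the control range. Sat1, which acetylates polyamines, rose by 0.58 (SE 0.17, adjusted p = 0.035). The protease gene Tpp2 (1.51) and Gtpbp2 (1.51), a factor in the rescue of stalled ribosomes, had the largest fitted rises, from lower levels and with wider intervals of 0.75 to 2.27 and 0.79 to 2.24. The remaining genes that rose were Rgs1 (1.3), the LIM protein gene Lmo4 (0.94), the membrane protein gene Bri3 (0.83), the kinase gene Pim1 (0.59), Spp1 (0.47), the histone gene H3f3b (0.44) and the lectin gene Lgals3 (0.35). Lgals3 is also a macrophage marker.

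Among the 9 genes that fell without proline, S100a4 (chr3:90603771-90606045, plus strand) fell by 0.73 on the log2 scale (SE 0.13, adjusted p = 0.000137). At T0 it had 1255 and 1579 CPM with proline and 629.7 and 1019 CPM without it, against 1089.5, 1415 and 1689.6 CPM in controls. At T4 it had 855 and 1044 CPM with proline and 385 and 394 CPM without it, against 679, 923 and 1297 CPM in controls. The libraries without proline were under every control at T0 and T4 and inside the range at T1, with 1033 and 1115 CPM against 879, 1348 and 1547 CPM. S100a6, its neighbour 6.8 kb away and another calcium-binding protein gene, fell by 0.66 (SE 0.19, adjusted p = 0.035), and at T4 it had 333 and 425 CPM with proline and 141 and 148 CPM without it, against 156, 298 and 462 CPM in controls. Hsp90b1 fell by 1.37 and Hspa8 by 0.73. Maf, a transcription factor of resident macrophages, fell by 0.85 (SE 0.23, adjusted p = 0.0216), with 344 and 753 CPM with proline and 89.8 and 308 CPM without it at T4, against 350.3, 543 and 773 CPM in controls. At T4 both libraries without proline and 1 with it lay under every control. Chd4 (-0.77), Prrc2c (-0.69), the interferon-inducible gene Ifi27l2a (-0.63) and Tmsb4x (-0.38), which encodes an actin-sequestering peptide, also fell. Tmsb4x at T0 had 2764 and 2820.3 CPM with proline and 1914 and 2226 CPM without it, against 2389, 2852 and 3394 CPM in controls, so that only the arm without proline lay under every control at T0. With the Rn45s share as a covariate 25 genes were called without proline, 19 of them among the 30, and Chd4 and Prrc2c were then not.

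**Figure D3:**
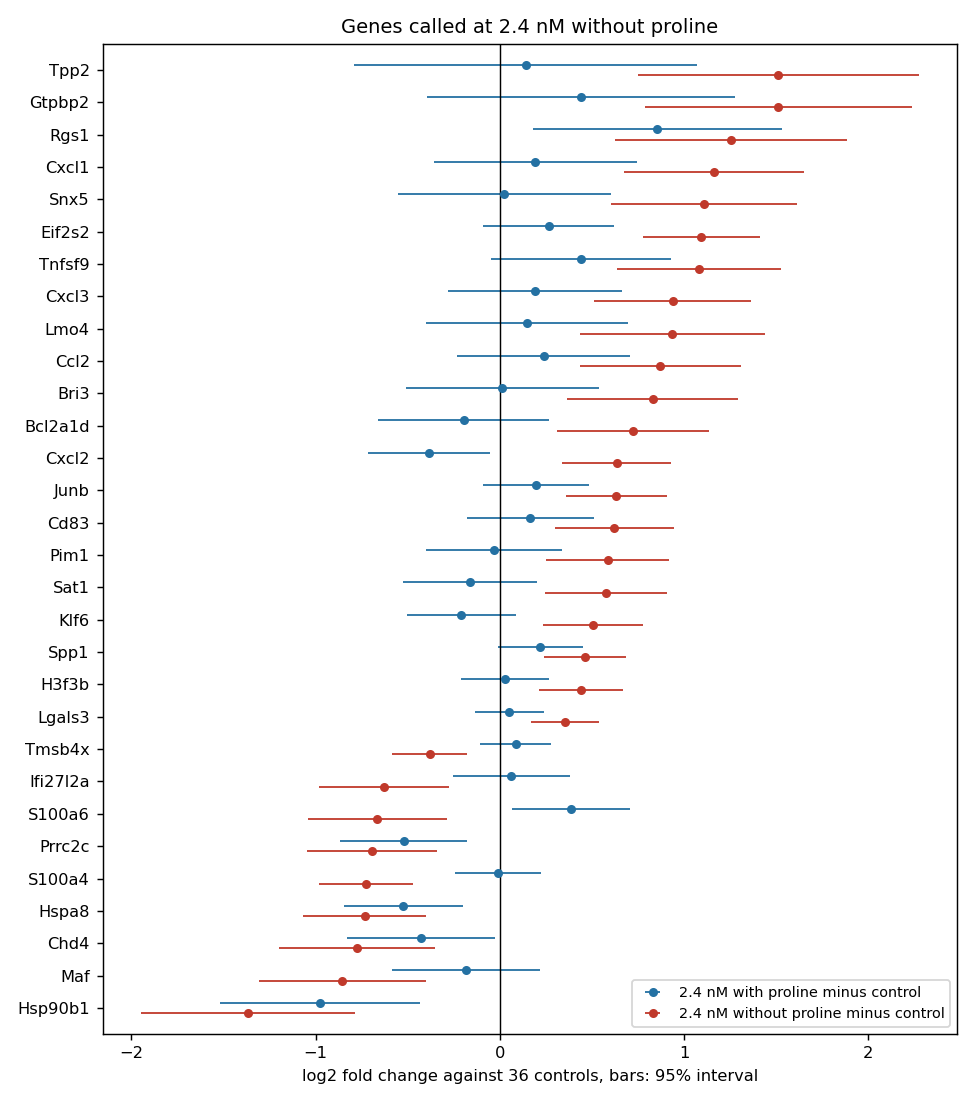
Fitted log2 fold change against the 36 controls for the 30 genes called at 2.4 nM without proline, with 95% intervals; for each gene the upper mark is 2.4 nM with proline and the lower mark 2.4 nM without it. The genes were chosen by the lower marks, which lie between -1.37 for Hsp90b1 and 1.51 for Gtpbp2, and none of the upper marks passed the test.

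The amino acid response was at the edge of what these depths can show. Of 38 listed ATF4 targets and amino acid response genes, 31 had a count and 6 passed the filter of a minimum count of 10, and none of the 6 was called at 2.4 nM without proline. When the filter was lowered to a minimum count of 3, a setting chosen after the data had been seen, 19 of 4806 genes were called without proline (0.395%), 16 higher (0.333%) and 3 lower (0.0624%), and 5 list members were among those higher. That filter keeps a gene that reaches the count in 1 arm alone, so a member can be kept through the arm in which it is high, and the 14 members kept do not stand for the list. The 5 were Mthfd2, a mitochondrial folate enzyme, 2.71 (SE 0.49, adjusted p = 0.000221); Slc38a2, a neutral amino acid transporter, 2.13 (SE 0.37, adjusted p = 9.49e-05); Asns, asparagine synthetase, 2.06 (SE 0.50, adjusted p = 0.0189); Ddit3, the transcription factor CHOP, 2.01 (SE 0.46, adjusted p = 0.00953); and Atf4 itself, 1.33 (SE 0.30, adjusted p = 0.00953). Limma-voom called the same 5 at this filter, with adjusted p from 3.07e-05 for Mthfd2 to 0.0267 for Atf4, while DESeq2 gave none of them an adjusted p. With no filter 28 of 12852 genes were called (0.218%), of which 7 were among the 31 members with a count: these 5, Chac1, which degrades glutathione, and Slc7a1, a transporter of basic amino acids. These genes rest on few counts, so their SE can be too small.

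The counts behind them were as follows. Mthfd2 had 4 counts in the 6 libraries with proline and 40 in the 6 without it, against 33 in 36 controls. Ddit3 had 8 with proline and 37 without it, against 48 in controls, and Asns had 9 and 32, against 42. In each case the arm without proline held more counts than the arm with proline, from libraries of like depth. These genes were chosen by their rise in that arm, so this is no test. With against without proline, edgeR at the minimum count of 3 gave adjusted p of 0.224 for Mthfd2, 0.468 for Ddit3 and 0.765 for Asns. Of these genes only Mthfd2 passed by limma-voom there (adjusted p = 0.0294). Atf4 had 25 counts with proline and 75 without it, against 176 in controls, and Slc38a2 had 24 and 68, against 107. Chac1 had 1 count with proline and 7 without it, 6 of them at T4, and was at 0 in all 36 controls. Trib3, a pseudokinase gene induced by ATF4, had 3 counts with proline and 11 without it, against 9 in controls. Not all members went this way. With no filter, 24 of the 31 members with a count were positive without proline against control, and none was called lower. Among the negative ones were Psat1 (-1.78, edgeR adjusted p = 0.615), Ddit4 (-0.44) and Sesn2 (-0.19).

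As levels, Ddit3 at T0 had 16.5 and 29.5 CPM with proline and 125 and 164 CPM without it, against 0, 17.7 and 98.4 CPM in controls. Atf4 at T4 had 48.6 and 95 CPM with proline and 136 and 295 CPM without it, against 21.8, 79.9 and 129 CPM in controls. Mthfd2 at T4 had 0 and 12.1 CPM with proline and 89.8 and 160.1 CPM without it, against 0, 5.46 and 51.2 CPM in controls. In these 3 instances both libraries without proline lay above every control, and both with proline lay inside the control range. They are examples and no test, because the rule for naming genes sets no times. None of the 3 genes passed the main filter, and the lower filter can keep a gene through the arm in which it is high. Summed over all 38 listed genes, the level at T0 was 707 and 738 CPM with proline and 1549 and 1771 CPM without it, against 659 to 1014 CPM in controls. At T1 the sum was 1223 and 1672 CPM with proline and 2369.9 and 2768 CPM without it, against 810.2 to 1939 CPM in controls. At T4 it was 998 and 1214 CPM with proline and 1897 and 1950.4 CPM without it, against 643 to 1247 CPM in controls. At all 3 times the arm without proline lay above every control and the arm with proline within their range.

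Of the tRNA synthetases, which charge tRNA with amino acids and many of which are ATF4 targets, 2 of 21 passed the main filter and neither was called. Eprs, the gene of the drug's own target, had a difference of 0.0041 with proline, with an interval of -0.61 to 0.62, and of 0.97 (SE 0.29, adjusted p = 0.0533) without it. At T4 Eprs had 11.9 and 146 CPM with proline and 111 and 193 CPM without it, against 0, 45.7 and 112 CPM in controls. At the minimum count of 3 edgeR called none of the 14 kept without proline, while limma-voom called Cars, the cysteine enzyme, and DESeq2 called Eprs. The summed level at T0 was 561 and 625 CPM with proline and 909 and 1045 CPM without it, against 547 to 879 CPM in controls. At T4 it was 376 and 475 CPM with proline and 702 and 1027 CPM without it, against 290.1 to 714 CPM in controls. Both libraries without proline lay above every control at T0, and 1 of the 2 did at T4. No gene of proline metabolism passed the main filter, and at T4 that list summed to 72.8 and 178 CPM with proline and 116 and 160.1 CPM without it, against 32.1 to 276 CPM in controls. Among the 6 ATF4 list members that passed the main filter were the transcription factor genes Atf3, 0.50 (SE 0.28, adjusted p = 0.422), and Cebpb, 0.42 (SE 0.22, adjusted p = 0.389).

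With proline, 0 of 1307 genes were called at 2.4 nM against control by edgeR (0%); 97 had an unadjusted p under 0.05, the smallest adjusted p was 0.129, and limma-voom and DESeq2 also called 0. The 95% interval lay within 2-fold for 1031 genes (78.9%), and for the rest it reached past 2-fold. The 4 genes with the smallest p that the naming rule takes had an adjusted p of 0.129 each. They were Cybb -0.58, the ubiquitin ligase gene Rnf149 -0.96, the RNA-binding protein gene Khdrbs1 1.04 and the prothymosin gene Ptma 0.59. Hsp90b1 had -0.98 (SE 0.27, adjusted p = 0.129) with proline and Hspa8 -0.52 (SE 0.16, adjusted p = 0.232). Rnf149 at T0 had 263 and 266 CPM with proline and 533 and 579 CPM without it, against 295, 593 and 1004 CPM in controls. Both of its libraries with proline lay under every control at T0. The medians of the lists against control with proline were 0.083 for inflammatory genes, -0.074 for immediate early genes, -0.06 for interferon-stimulated genes and -0.15 for ATF4 targets, where that of all genes was -0.019. At the minimum count of 3, edgeR again called 0 of 4806 genes, as did limma-voom and DESeq2. With no filter 12 of 12852 genes were called (0.0934%) and none was an ATF4 target. Among the 12 were Rnf149 (edgeR adjusted p = 0.000493), Cybb and Hsp90b1 (0.0116 each), which had not passed at the main filter.

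With against without proline at 2.4 nM, a comparison of 6 libraries with 6, 3 of 1307 genes were called (0.23%), 2 higher (0.153%) and 1 lower (0.0765%). Cxcl2 was lower with proline, -1.02 (SE 0.21, adjusted p = 0.00593). S100a6 was higher with proline, 1.05 (SE 0.23, adjusted p = 0.0109), and so was S100a4, 0.72 (SE 0.16, adjusted p = 0.0109). For S100a6 at T0 the levels were 428 and 576 CPM with proline and 219 and 289.6 CPM without it, and at T1 376 and 397 CPM with proline and 213 and 223 CPM without it. At each of the 3 times both libraries with proline had more S100a6 than both without it. By limma-voom S100a4 and S100a6 passed and Cxcl2 did not (adjusted p = 0.526), and DESeq2 called 16 genes. Over the 12 libraries left out in turn the count ran from 0, without T4 replicate 2 of the arm with proline, to 5, without T0 replicate 1 of the arm without it. Without T4 replicate 1 or 2 of the arm without proline it was 1. The interval of the difference lay within 2-fold for 648 genes (49.6%), and for the others it reached past 2-fold. For Eif2s2 the difference was -0.83 (SE 0.22, adjusted p = 0.0741), for Klf6 -0.72 (SE 0.19, adjusted p = 0.0741) and for Tmsb4x 0.47 (SE 0.13, adjusted p = 0.118). At the minimum count of 3, edgeR called 2 of 4806 genes (0.0416%), Cxcl2 and S100a4, and no ATF4 target. Mthfd2 had -3.05 (SE 0.81, adjusted p = 0.224) there and passed by limma-voom (adjusted p = 0.0294), while DESeq2 gave it no adjusted p. Atf4 had -1.57 (SE 0.44, adjusted p = 0.267). The comparisons of each arm with control share their controls, and the comparison of the arms shares its libraries with both.

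Within single times, 4 libraries at 2.4 nM were set against 12 controls over 1802 genes. At T0 and at T1 edgeR called 0 genes (0%); 120 genes at T0 and 122 at T1 had an unadjusted p under 0.05, limma-voom called 2 at T0 and 0 at T1, and DESeq2 called 0 at each. At T4, 1 gene was called (0.0555%), Slc38a1, a glutamine transporter gene, which rose by 1.94 (SE 0.43, adjusted p = 0.0455). At T4 it had 83.1 and 158 CPM with proline and 154 and 172 CPM without it, against 0, 26.9 and 117 CPM in controls. 1 of the libraries with proline lay inside the control range and the others above it. Limma-voom called 8 genes at T4 and DESeq2 2, and Slc38a1 missed the threshold when any 1 of the 4 libraries at T4 was left out (highest adjusted p = 0.395). Among genes that did not pass, the smallest p at T0 was that of Os9, a lectin of the endoplasmic reticulum, with -3.99 (SE 0.93, adjusted p = 0.0822), followed by Hsp90b1 at -1.24, Junb at 0.89 and Slfn8, a schlafen family gene, at -2.07, which did not pass at T0 either. At T1 the smallest p values were those of Sltm (-2.35), Eif2s2 (0.82), Prrc2c (-0.78) and the phosphatase gene Ptpn1 (-1.34), with an adjusted p of 0.539 each. The interval lay within 2-fold for 34.7% of genes at T0, 34.6% at T1 and 44.3% at T4.

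The later times were then compared with T0 within each condition, as the nearest measure of the response to LPS. At 2.4 nM, T1 against T0 called 151 of 1802 genes (8.38%), 140 higher (7.77%) and 11 lower (0.61%); in controls, with 3 times as many libraries, it called 256 (14.2%), 216 higher (12%) and 40 lower (2.22%). T4 against T0 called 686 at 2.4 nM (38.1%), 442 higher (24.5%) and 244 lower (13.5%), and 1094 in controls (60.7%), 597 higher (33.1%) and 497 lower (27.6%). Counts in the conditions differ in their number of libraries, so the difference between responses was tested itself. For T1, 0 genes differed in their response by edgeR (0%), limma-voom and DESeq2, 97 had an unadjusted p under 0.05 and the smallest adjusted p was 0.381; for T4 the count was again 0 by all 3, with 93 and 0.795. The interval of that difference lay within 2-fold for 14% of genes at T1 and 16% at T4, and for most genes it reached past 2-fold. Across genes, which are not independent replicates, fitted changes at 2.4 nM and in controls had r = 0.77 and rho = 0.459 at T1 and r = 0.929 and rho = 0.884 at T4. Of the 151 genes called at T1, 148 had the same sign in controls and 129 were called there, 85.4% of the list at 2.4 nM and 50.4% of that in controls. At T4 these were 684 and 647 of 686, 94.3% and 59.1%. The conditions share no library. The smallest p values for a different response were those of Ptpn1 at T1 (-1.99, SE 0.51, adjusted p = 0.381) and of the immune checkpoint ligand gene Cd274 (3.32), the importin gene Kpna3 (3.33), the G protein regulator gene Rgs2 (1.73) and the growth factor gene Vegfa (-4.35) at T4, each with an adjusted p of 0.795, and none passed.

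At T1 the largest rises at 2.4 nM were those of Cxcl1 at 8.47 (against 6.53 in controls), Il1b at 8.25 (6.99), Irg1, the itaconate enzyme, at 7.96 (7.17), the signalling inhibitor Errfi1 at 7.80 (4.98), Cxcl10 at 7.75 (5.92) and the cytokine signal inhibitor Socs3 at 7.70 (5.79). At T0 Cxcl1, Irg1, Errfi1 and Socs3 had 0 CPM in all 4 libraries at 2.4 nM, so the fitted folds of these genes depend on the prior count and are no bounds. Txnip, a thioredoxin inhibitor that responds to glucose, fell by 3.40, with -3.46 in controls; the RNA-binding protein gene Sltm fell by 2.28 and Ptpn1 by 1.97. By T4 Cxcl10 was up by 10.45 (8.52 in controls), Irg1 by 9.83 (9.14), the collagenase gene Mmp13 by 9.47 (9.71), the interferon-induced nucleotide kinase gene Cmpk2 by 9.18 (7.76) and the receptor gene Cd40 by 8.93 (6.15). The amino acid transporter gene Slc43a2 fell by 4.56 (-3.09 in controls) and the integrin gene Itga6 by 2.76 (-2.09). Lists of genes gave these counts. Of 38 inflammatory genes, 31 rose at T1 at 2.4 nM (median 4.6) and 36 in controls (3.65), and all 38 at T4 in both. Of 41 interferon-stimulated genes, 11 rose at T1 at 2.4 nM and 14 in controls, where 1 fell, and 40 and 41 rose at T4. Of 13 immediate early genes, 11 rose at T1 at 2.4 nM and 10 in controls.

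In single libraries, Rsad2 at T4 had 15403 and 15586 CPM with proline and 18512 and 19941 CPM without it, against 13449, 15388 and 19189 CPM in controls. Ifit1 at T4 had 4091 and 4703 CPM with proline and 5198 and 5761 CPM without it, against 4125, 4930.2 and 5925 CPM in controls. Il1b at T1 had 2313 and 2399 CPM with proline and 2218 and 2973 CPM without it, against 1978, 2394 and 2846 CPM in controls. For each of the 3 genes, 1 library at 2.4 nM lay just outside the control range and the other 3 lay inside it. Of 78 ribosomal protein genes, 13 fell at T4 at 2.4 nM (median -0.31), near the 13.5% of all genes that were called lower there. In controls 39 fell and 1 rose (median -0.34), where 27.6% of all genes were called lower.

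**Figure D4:**
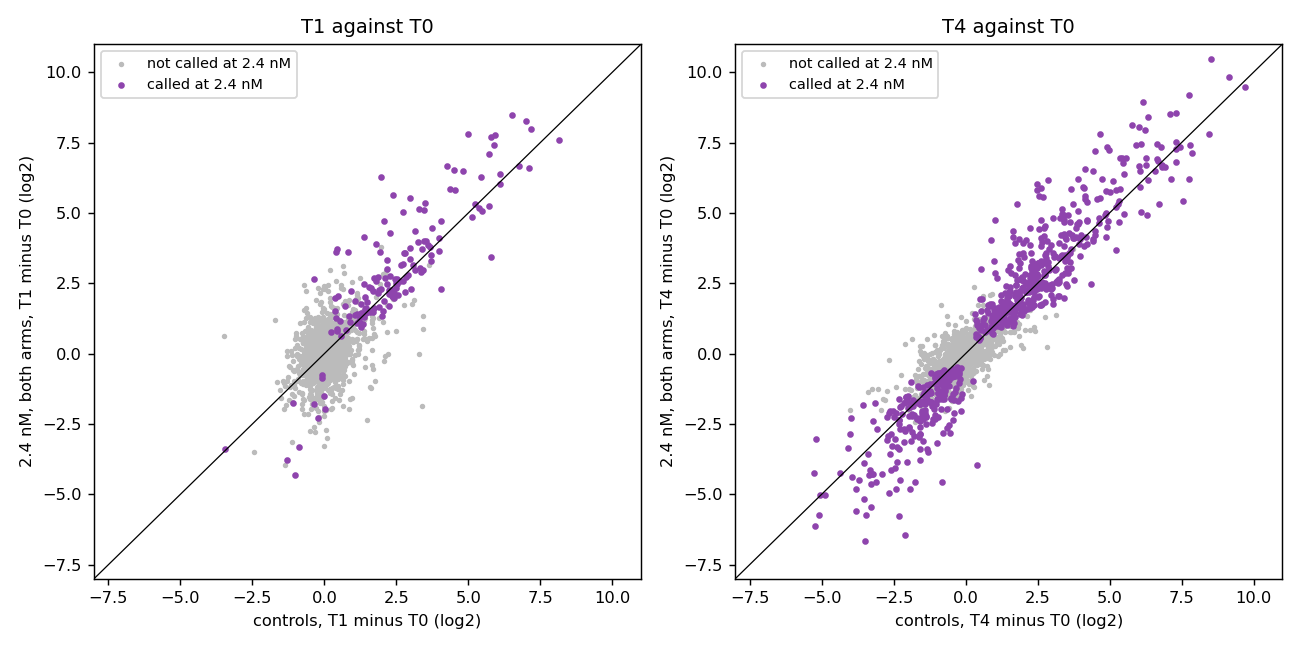
Fitted log2 change of each of 1802 genes from T0 to T1 (left) and to T4 (right), at 2.4 nM with both arms (vertical axis) against controls (horizontal axis); purple points are genes called at 2.4 nM and the line marks equal change. Of the called genes, 148 of 151 at T1 and 684 of 686 at T4 have the same sign in controls.

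Against the next dose, 2.4 nM differed from 9.7 nM in 27 of 1022 genes (2.64%), 8 higher (0.783%) and 19 lower (1.86%) at 2.4 nM, with no control in the fit. Among the genes higher at 2.4 nM were S100a4 (1.11, SE 0.16, adjusted p = 3.96e-06), S100a6 (0.88), Tmsb4x (0.53, SE 0.099, adjusted p = 0.000288), the complement gene C1qb (0.62) and the membrane protein gene Tmem50a (0.77). Among those lower at 2.4 nM were Cxcl2 (-1.04, SE 0.18, adjusted p = 0.000116), Cxcl1 (-0.89), Tnf (-0.76), Nfkbia (-0.42), the chaperone gene Hsp90aa1 (-0.64), Egr1 (-1.59), Atf3 (-0.88) and the autophagy receptor gene Sqstm1 (-1.19). Of 37 inflammatory genes 6 were lower and of 14 immediate early genes 3, and none of either list was higher; all 14 immediate early genes were negative, with a median of -0.50. Eif2s2 had -0.25 (SE 0.16, adjusted p = 0.481), Hsp90b1 -0.099 (SE 0.24, adjusted p = 0.927) and Hspa8 0.11 (SE 0.16, adjusted p = 0.856), and none of the 3 passed. Limma-voom called 10 genes and DESeq2 34. Of the genes named above as higher or lower, Cxcl2, Cxcl1, Tnf, Nfkbia, Atf3, C1qb and Tmem50a did not pass by limma-voom. Their adjusted p there ran from 0.065 for Tmem50a to 0.449 for Cxcl2, while DESeq2 called each of them. Leaving out 1 library at 2.4 nM at a time left 14 to 26 calls by edgeR. The count was 14 without T1 replicate 2 or T4 replicate 2 of the arm without proline, and 17 without T0 replicate 2, T1 replicate 1 or T1 replicate 2 of the arm with proline.

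The arms stood apart more at 9.7 nM than at 2.4 nM for some of these genes, which is described here by level and was not tested. Cxcl2 at T0 had 29.5 and 49.4 CPM with proline and 37.8 and 47 CPM without it at 2.4 nM, and 0 and 0 CPM with proline and 622 and 807 CPM without it at 9.7 nM. At T1 the 9.7 nM libraries had 3060.4 and 3924 CPM with proline and 9172 and 10909 CPM without it. S100a4 at T0 had 1255 and 1579 CPM with proline and 629.7 and 1019 CPM without it at 2.4 nM, and 1074 and 1442 CPM with proline and 105 and 201 CPM without it at 9.7 nM. For Cxcl2 at T1 and S100a4 at T0, the libraries without proline at 9.7 nM lay further from the controls than those at 2.4 nM, on the same side. Eif2s2 at T0 had 222 and 296 CPM with proline and 408 and 428 CPM without it at 2.4 nM, and 275 and 437 CPM with proline and 614 and 702 CPM without it at 9.7 nM. The summed level of ATF4 targets at T1 was 1223 and 1672 CPM with proline and 2369.9 and 2768 CPM without it at 2.4 nM, and 1559.9 and 1911 CPM with proline and 3753 and 4269.6 CPM without it at 9.7 nM. At T4 the sum without proline was 1897 and 1950.4 CPM at 2.4 nM and 1590.3 and 1649.7 CPM at 9.7 nM, so that both libraries at 2.4 nM lay above both at 9.7 nM.

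**Figure D5:**
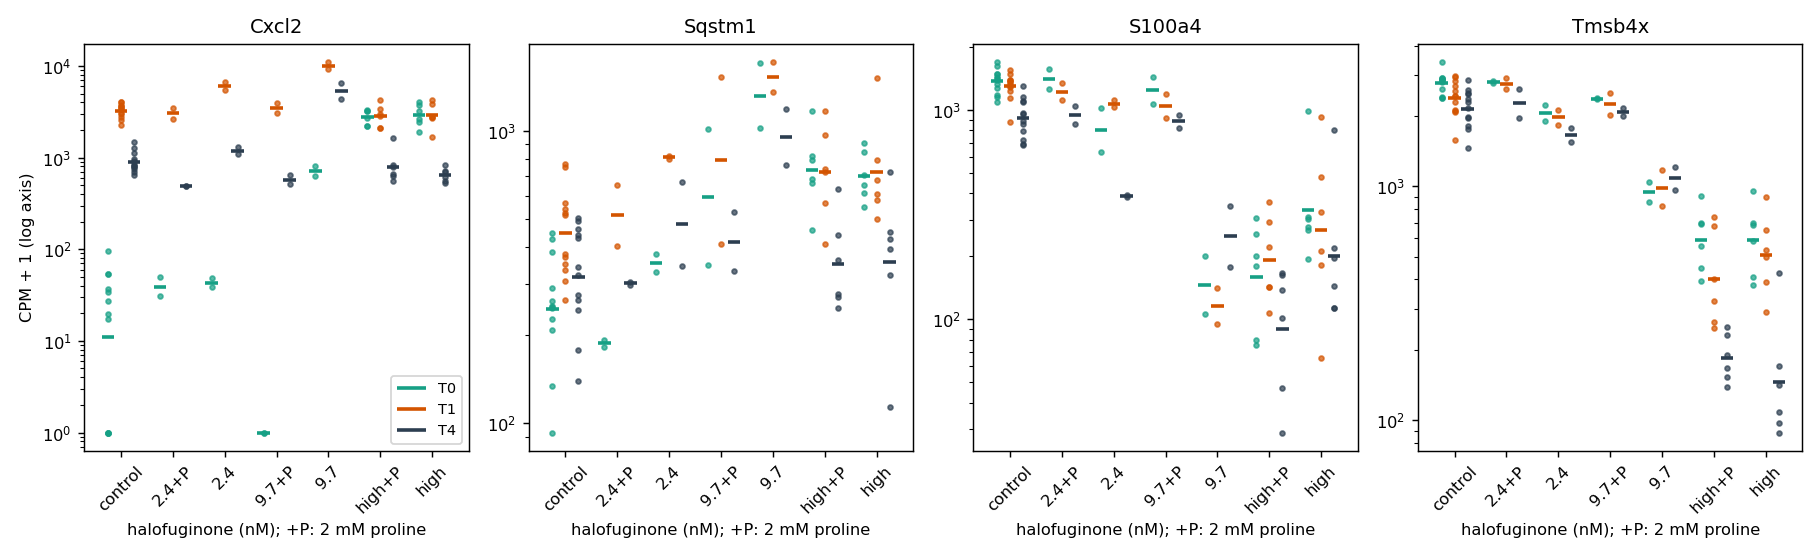
Level of Cxcl2, Sqstm1, S100a4 and Tmsb4x (CPM + 1, log axis) by dose label, from control through 2.4 and 9.7 nM to the pooled doses of 625, 2500 and 10000 nM (high), with P for the arm with proline; points are libraries, horizontal marks are geometric means, and colours are time labels. S100a4 and Tmsb4x without proline are lower at 9.7 nM than at 2.4 nM at each time, while with proline the levels at 9.7 nM lie near those of controls. At the high doses the medians of both genes lie under every control. A single library of S100a4 without proline has 922 CPM at T1 and another 802 CPM at T4, inside the control range. The next highest there have 478 CPM at T1 and 218 CPM at T4.

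Against 625 to 10000 nM, 745 of 1254 genes differed (59.4%), 347 higher (27.7%) and 398 lower (31.7%) at 2.4 nM. The split depends on the scaling: with median-of-ratios scaling 411 were higher and 265 lower, and the median difference of all genes was 0.086 in place of -0.17, a shift of 0.261. Ribosomal protein genes were higher at 2.4 nM in 72 of 76 cases with a median of 1.72, among them Rpl37a (2.86) and Rps26 (2.68), and Tmsb4x was higher by 2.37. All 16 immediate early genes were lower at 2.4 nM (median -2.01), with Egr1 at -4.40, Ifrd1 at -3.19 and Jun at -2.77. The small RNA genes Rnu6 (-4.55) and Rn4.5s (-4.47), Ier3, an early survival gene of the inflammatory list (-2.70), and Rn45s (-1.42) were lower too. With the Rn45s share as a covariate 2 genes were called, so nearly all of these differences cannot be told apart from that share. Eif2s2 was higher at 2.4 nM than at the high doses by 1.24 and Hsp90b1 lower by 1.26. The 36 libraries at high doses included 6 with under 30000 counts.

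The other lists are read beside the 2.3% of all 1307 genes called at 2.4 nM without proline, a share at which a short list would often hold no call. None was called of 18 tested lysosomal genes, 12 of the respiratory chain, 9 of hypoxia and glycolysis, 5 of the TGF-beta response, 5 of NRF2, 3 of p53, 2 neutrophil markers and 77 ribosomal protein genes, and their medians ran from -0.24 to 0.11. Spp1 was the call among 4 extracellular matrix genes. Of 17 macrophage identity genes, Lgals3 rose and Maf fell, where 1.61% of all genes were called higher and 0.689% lower. Of the 17, 3 were positive and the median was -0.18. Csf1r, the receptor for the growth factor CSF1, had 0.07 (SE 0.13, adjusted p = 0.89), an interval of -0.18 to 0.32, and Cd14, a coreceptor for LPS, had -0.34 (SE 0.18, adjusted p = 0.394). Csf1r at T4 had 309 and 546 CPM with proline and 488 and 702 CPM without it, against 291, 474 and 611 CPM in controls. No gene of the cholesterol list was tested, and the 1 tested cell cycle gene was not called.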

How the data were processed

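Macrophage RNA in 120 libraries was measured by a modified SCRB-seq protocol, a 3′ digital gene expression assay, per the labels' protocols. The authors deposited whole-number counts per gene, and per the submitters' processing notes BWA and the mm10 build were used. The sources used here do not name the counting program or say whether molecular identifiers were collapsed. Rn45s stayed in library sizes. Genes were kept by filterByExpr at a minimum count of 10 and tested with edgeR 4.0.16 (quasi-likelihood, TMM), with condition and time as terms, over 48 libraries; values within single times come from a fit of 9 cells, and those against 9.7 nM and high doses from fits without controls. Alternatives were limma 3.58.1 (voom), DESeq2 1.42.0, median-of-ratios scaling, no filter, a replicate block, each library left out, and, chosen after seeing the data, controls left out by replicate number, Rn45s share as a covariate, the additive filter for fits of single times and a minimum count of 3. Members and gene lists were chosen with earlier results of these data known. The text names, per comparison, up to 6 largest called rises and 6 largest called falls among genes at or above the median level, with every library on 1 side of the other group's mean; all calls where 5 or fewer passed; the 4 smallest p values where none passed; a fixed set of response genes; and up to 3 members of each list. Other called genes were named after their values were seen. The SE is the fold change divided by the root of F, and can be too small at low counts. Library shares were compared by permutation within times (100000 resamples, or exact enumeration). No pair of replicate libraries was identical, so all were counted. Gene positions are from GENCODE M21 (GRCm38). The edgeR script was tested on simulated data.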

Additional observations from a re-analysis of the deposited data

Results flagged for a closer look

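The difference between arms at 2.4 nM passed the test for 3 genes. Cxcl2 was lower with proline than without it by a log2 difference of -1.02, S100a6 was higher with proline by 1.05, and S100a4 was higher with proline by 0.715. Against control, S100a4 had a difference of -0.012 (SE 0.12) with proline and fell by 0.73 without it. For Cxcl2 the adjusted p ran from 1.69e-06 to 0.526 over the alternatives, and it missed the threshold by limma-voom, with cell means, without T1 replicate 1 of the arm without proline and without T4 replicate 2 of the arm with proline.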

How the results depend on the processing

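Depth limits these results: libraries held few counts beside Rn45s and 6 to 36 libraries stood behind an arm. The alternatives were followed for 29 results, each a named gene called in 1 comparison, so that some genes count more than once. Of their 890 values, none reversed, 742 kept direction and side of the threshold and 148 no longer passed. Those of Eif2s2 and S100a4 without proline, Hsp90b1 and Hspa8 with both arms, and Tmsb4x against 9.7 nM passed under every alternative run for them. Named genes that did not pass in the main fit were not followed. Of 384 alternative counts of called genes, 330 stayed within 1.5 times and 54 did not. DESeq2 called 48 genes without proline, 26 with both arms, 16 between the arms and 2 at T4; limma-voom called 14 without proline, 8 with both arms, 2 at T0, 8 at T4 and 10 against 9.7 nM. With no filter on low counts 12 were called with proline, 1 between the arms, 4 at T0, 1 at T1, 4 at T4, 7 against 9.7 nM and 1460 against the high doses, 1211 of them higher and 249 lower. A minimum count of 3 left 19 without proline and 7 with both arms, and the filter of the additive design gave 2 at T4. With the Rn45s share as a covariate 3 were called with proline, 8 between the arms, 2 at T4 and 2 against the high doses. A fit of the 12 libraries at 2.4 nM alone called 14 between the arms. With single libraries at 2.4 nM left out the counts ran from 15 to 31 without proline, 7 to 15 with both arms, 0 to 5 between the arms, 0 to 1 at T4, 14 to 26 against 9.7 nM, 675 to 714 against the high doses, 119 to 152 for T1 against T0 and 593 to 686 for T4 against T0; with proline, at T0, at T1 and for both differences in response they stayed at 0. With all controls of a replicate number left out at once, 3 libraries, they ran from 25 to 36 without proline, 12 to 19 with both arms and 0 to 2 at T4, and stayed at 3 between the arms. Replicate numbers were not taken to pair the libraries. Deviations of same-numbered libraries with and without proline at the same time correlated at -0.0276 to 0.0458. Across times, same-numbered controls correlated at -0.029 to 0.312, with 9 of 36 pairs over 0.1, and same-numbered libraries without proline at up to 0.115, so time as the only block leaves some shared deviation. With a block for each time and replicate number together, 10 genes were called without proline, 9 with proline and 7 with both arms. Controls numbered above 2 then each stand alone in a block and add nothing to these differences from control. With the number alone as the block, 159 genes were called for T1 and 698 for T4 against T0. The cause of these shifts was not tested.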
